A study of Mus musculus with 4 samples.

Results

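The genes described here are 8 regulators and receptors of the type 17 program of regulatory T (Treg) cells, taken by name from the 47729 rows of the count table. They are the transcription factors *Maf*, *Ahr*, *Rora* and *Stat3*, the repressor *Ahrr*, and the receptor chains *Il23r*, *Il6ra* and *Il6st*. All 8 were found, and 6 of them passed the filter on low counts and were tested. RNA was sequenced from 4 libraries of CD25+YFP+ cells sorted from CD4 T cells of female C57BL/6 mice, 2 labelled WT (*Tfrc* +/+ *Foxp3* YFP-Cre/+) and 2 labelled TfR1-deficient (*Tfrc* fl/fl *Foxp3* YFP-Cre/+). Both genotypes carry the YFP-Cre allele, in which Cre is driven from *Foxp3*, an X-linked gene that is silenced on 1 of the X chromosomes in each cell, so YFP+ cells are those that use the Cre allele. *Tfrc* encodes TfR1, the receptor that takes up iron-loaded transferrin, and the comparison asks how Treg cells differ when it is deleted. The labels give the spleen as the tissue, whereas a legend of the study names spleens and lymph nodes, and the study calls the libraries of a genotype biological replicates. By the study's reporting summary the mice were age-matched young adults, and any pooling of animals is not given in the sources used here.

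Treg cells of this program, which depend on c-Maf, are common in the intestine, where they restrain responses to the microbiota, and scarce in the spleen. STAT3 is activated by cytokine receptors that use gp130 (*Il6st*), such as the IL-6 receptor, or by the IL-23 receptor, and carries their signal to the genes of the program. AHR is a ligand-activated transcription factor that senses dietary and microbial compounds. It pairs with ARNT on DNA, and it induces its own repressor, AHRR.

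RefSeq promoter windows, from 250 bases before to 50 bases after a gene's start on GRCm38.p6, were found for 6 of the 8 genes. *Maf* and *Ahr* were not matched. The bases before the start are shown for *Ahrr* and *Il23r*, the 2 genes with the fewest reads, because their windows hold repeats of a core sequence bound by the products of other genes of the group. In *Ahrr* (chr13:74292332-74292581, minus strand) the capitals mark GCGTG, the core bound by AHR with ARNT, and in *Il23r* (chr6:67491856-67492105, minus strand) they mark AGGTCA or its reverse complement, the core motif of ROR factors.
Ahrr: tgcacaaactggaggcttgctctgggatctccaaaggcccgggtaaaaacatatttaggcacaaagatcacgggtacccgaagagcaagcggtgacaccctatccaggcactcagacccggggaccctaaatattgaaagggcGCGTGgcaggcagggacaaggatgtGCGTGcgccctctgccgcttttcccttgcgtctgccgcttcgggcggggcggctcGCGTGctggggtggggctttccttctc
Il23r: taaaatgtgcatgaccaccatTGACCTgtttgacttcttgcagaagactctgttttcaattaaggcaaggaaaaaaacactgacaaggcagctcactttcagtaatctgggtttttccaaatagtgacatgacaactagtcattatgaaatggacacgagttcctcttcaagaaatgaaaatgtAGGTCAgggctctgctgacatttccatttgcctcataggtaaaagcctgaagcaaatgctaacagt

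GCGTG was found 3 times in the *Ahrr* window, at 107, 82 and 27 bases before the start and always on the gene's own strand, and AGGTCA 2 times in that of *Il23r*, at 66 bases on the gene's strand and at 229 bases on the other. Searched on both strands, GCGTG occurs in 32.4% of the 32851 windows and AGGTCA in 16.3%. TGCTGA, part of the site bound by Maf factors, was found once each in *Il23r*, *Stat3* and *Il6ra* and occurs in 19.5% of windows. GCGTG was found once each in *Rora*, *Stat3* and *Il6ra*. ACGTG, the core of the hypoxia response element, was found once in *Rora* and 2 times in *Il6ra*, where both matches lie in 1 palindrome, read on either strand, and it occurs in 19.6% of windows. *Il6st* held none of these motifs, and TTCNNNGAA, the STAT site, was in none of the 6 windows and in 8.3% of all. These are matches of letters only.

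*Tfrc* itself did not separate the genotypes, with 50.8 and 54.1 CPM (counts scaled to a library total of 1000000 with TMM factors) in WT against 56.1 and 48.3 CPM, so directions are given by the labels. Where values are set against each other, those of WT come first, and replicate 1 before replicate 2. Totals ran from 10841939 to 17278448 counts per library. *Foxp3* was counted in all 4, at 194 and 130 CPM in WT against 122 and 114 CPM (log2 fold change -0.46, standard error 0.22). Each of the 10 Treg and CD4 T-cell markers was at 114 CPM or more. Their sums were 6025 and 5866 CPM against 5132 and 4650 CPM, and 9 of the 10 had a log2 fold change below 0. For 6 of these markers the 2 WT values were the highest of the 4, as they were for 18.9% of all tested genes. The median log2 fold change over all tested genes was 0.0085. The part of these lower marker levels in the values of the 8 genes was not tested. WT replicate 1 and the library labelled TfR1-deficient replicate 2 stood apart: 19 of 20 macrophage markers and all 10 markers of cycling cells were higher in both than in the other libraries. Macrophage markers summed to 2262 CPM (WT replicate 1) and 5778 CPM (TfR1-deficient replicate 2) in these, and to 929 CPM (WT replicate 2) and 856 CPM (TfR1-deficient replicate 1) in the others. *Ctsb*, a lysosomal protease gene that many cell types express, made up most of the latter sums, at 887 and 810 CPM, and the other 19 markers summed to 1067 and 3375 CPM in the libraries that stood apart against 42.6 and 46.5 CPM. Cycling markers, *Mki67* among them, summed to 813 and 716 CPM and to 213 and 214 CPM in the same order. The B-cell list summed to at most 44.2 CPM, and the dendritic, neutrophil and CD8 T and NK-cell lists to at most 19.6 CPM, with *S100a8*, *S100a9*, *Ly6g* and *Retnlg* at 0 throughout. The 5 matched genes of the erythroid list were lowest in WT replicate 1, at a sum of 17.5 CPM, and highest in TfR1-deficient replicate 2, at 287 CPM.

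Of the tested members, *Maf* and *Ahr* were lower where TfR1 deficiency was labelled, and the IL-6 receptor chains and *Stat3* did not separate the genotypes beyond their spread. With an unadjusted p-value under 0.05 and a log2 fold change of 0.5 or more in size, edgeR's quasi-likelihood test put 2 of the 6 tested members lower and 0 higher, where 2.48% of all 12536 tested genes were lower and 1.6% higher. After Benjamini-Hochberg adjustment over all genes, edgeR called 0 of the 6 (0% of all genes in either direction). DESeq2, run on the same genes, also called 0 of the 6 adjusted and put 2 lower unadjusted. Its calls over all genes were 37 lower and 7 higher adjusted, and 307 lower and 206 higher unadjusted. The median log2 fold change of the 6 was -0.28, against 0.0085 over all tested genes. For *Maf*, *Ahr* and *Rora*, 3 of the 6, neither library labelled TfR1-deficient reached the lower WT library (18.9% of all tested genes), and for *Il6ra* both exceeded the higher WT library (16%). In RNA of a mixed population, fewer cells of a type and less RNA per cell cannot be told apart.

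**Figure D1:**
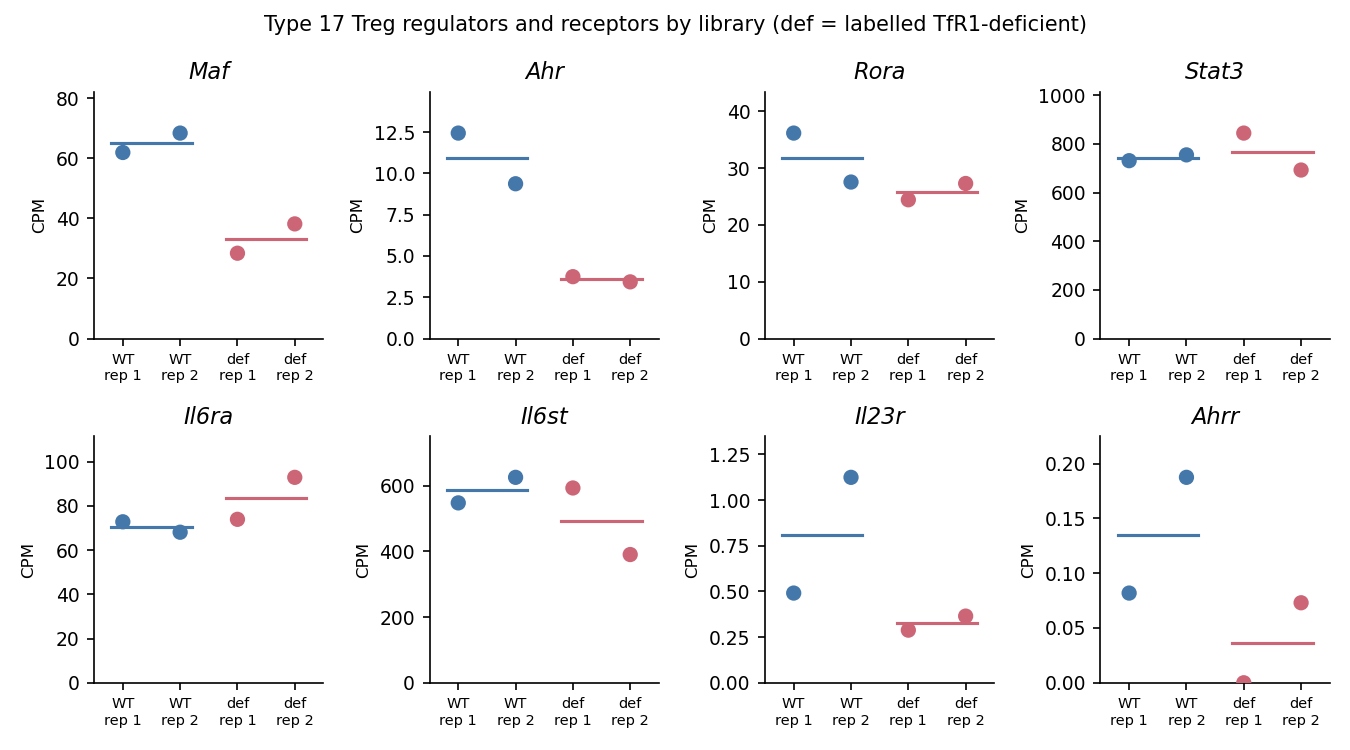
CPM of each of the 8 genes (y axis, linear, from 0) in the 4 libraries (x axis; points), with a line at each group's mean (n = 2). Both libraries labelled TfR1-deficient lie well below both WT libraries for *Maf* and *Ahr*, while the groups overlap for *Stat3* and *Il6st*, and *Il23r* and *Ahrr* stay below 1.13 CPM.

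*Maf* (chromosome 8, 115703253 to 115706894 on GRCm38.p6) encodes c-Maf, a bZIP transcription factor required for IL-10 production and for intestinal Treg cells of the type 17 program. WT replicates 1 and 2 held 62.0 and 68.4 CPM, and TfR1-deficient replicates 1 and 2 held 28.4 and 38.2 CPM. The lowest WT library was above the highest library labelled TfR1-deficient, and the gap between the genotypes was wider than that between replicates, which differed by 0.14 (WT) and 0.42 (TfR1-deficient) on the log2 scale. The log2 fold change was -0.97 (standard error 0.20, 95% interval -1.48 to -0.46), or 1.96-fold lower, with an unadjusted p = 0.0044 and an adjusted p = 0.911 in edgeR's quasi-likelihood test. DESeq2's Wald test gave an adjusted p = 0.066, and over all alternatives the adjusted p ran from 0.0030 to 1.0.

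*Ahr* (chromosome 12, 35497979 to 35534989) was at 12.4 and 9.37 CPM in WT, from 152 and 100 counts, whereas the libraries labelled TfR1-deficient held 3.75 and 3.43 CPM, from 65 and 47 counts. The groups did not overlap, and the replicates labelled TfR1-deficient were close to each other. The log2 fold change was -1.60 (standard error 0.33, 95% interval -2.44 to -0.76), or 3.03-fold lower, with an unadjusted p = 0.0043 and an adjusted p = 0.911 in edgeR. DESeq2 gave an adjusted p = 0.064. The lowest adjusted p of any alternative, 0.0235, came from a crossed pairing of the replicate numbers, added once the data had been seen. Over the other alternatives the adjusted p ran from 0.045 to 0.9999. Of all tested genes, 0.566% had a lower log2 fold change than *Ahr* and 2.27% a lower one than *Maf*. The study singled out *Ahr* in these same libraries, so its direction is not independent evidence here.

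*Rora* (chromosome 9, 68653404 to 69388246) encodes RORα, a nuclear receptor that also acts in tissue Treg cells. WT held 36.2 and 27.6 CPM and the other genotype 24.4 and 27.3 CPM, so WT replicate 2 and TfR1-deficient replicate 2 were nearly level. The log2 fold change of -0.30 (standard error 0.22, 95% interval -0.87 to 0.27, adjusted p = 0.950 in edgeR) was within the spread, and without WT replicate 1 it was -0.072.

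**Figure D2:**
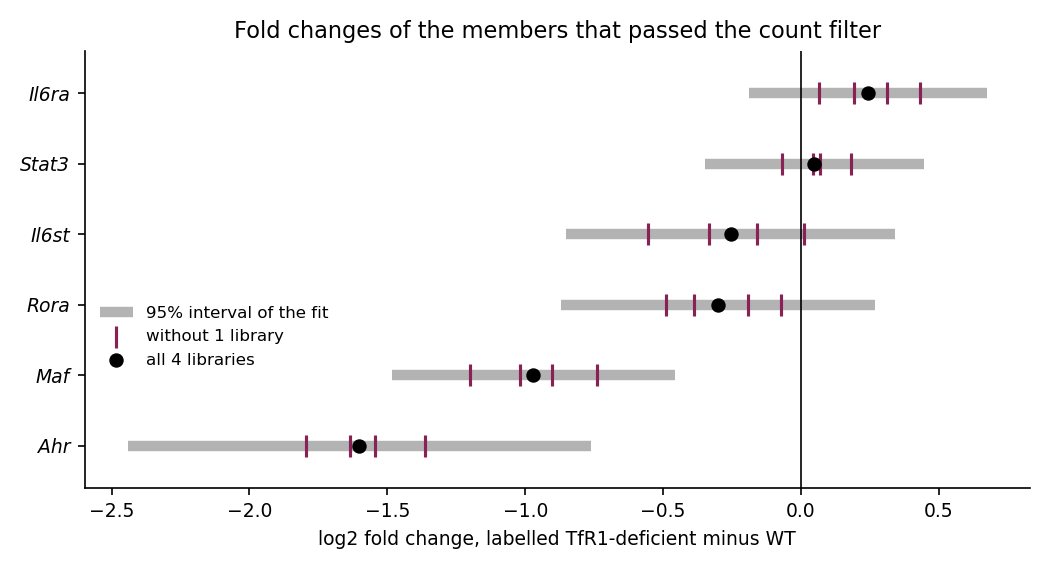
Log2 fold change, libraries labelled TfR1-deficient minus WT (x axis), of the 6 members that passed the count filter (y axis), with all 4 libraries (points), the 95% interval of edgeR's fit (grey bars) and the fits without 1 library (ticks). The intervals and ticks of *Maf* and *Ahr* lie below 0, and the intervals of the other 4 genes include 0.

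*Stat3* (chromosome 11, 100886806 to 100939594), which carries the signals of the IL-6 and IL-23 receptors to the nucleus, was at 731 and 755 CPM in WT, against 844 and 692 CPM. The latter lay on either side of WT. The log2 fold change was 0.049 (standard error 0.16), and its 95% interval, -0.35 to 0.45, leaves room for a change of up to that size in either direction (adjusted p = 0.989 in edgeR).

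*Il6ra* (chromosome 3, 89869324 to 89913196) encodes the chain that binds IL-6. Its CPM was 72.8 and 68.1 in WT against 73.9 and 92.9 under the TfR1-deficient label, just above WT in replicate 1 and further above in replicate 2. The log2 fold change was 0.24 (standard error 0.17, 95% interval -0.19 to 0.67, adjusted p = 0.940 in edgeR) and 0.065 without TfR1-deficient replicate 2.

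*Il6st* (chromosome 13, 112464070 to 112506860) encodes gp130, the signalling chain that IL-6 shares with related cytokines. Its CPM was 548 and 625 in WT against 593 and 390. Only TfR1-deficient replicate 2 stood below WT. The log2 fold change was -0.25 (standard error 0.23, 95% interval -0.85 to 0.34, adjusted p = 0.954 in edgeR) and 0.012 without that library. The same library had the highest macrophage markers and the highest *Il6ra*, and the part of those cells in these values was not tested.

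*Il23r* (chromosome 6, 67422932 to 67491855), which encodes the chain specific for IL-23, had 6 and 12 counts in WT against 5 and 5. These are 0.491 and 1.12 CPM against 0.288 and 0.365 CPM. The exact 95% Poisson interval of the 12 counts in WT replicate 2, 6.2 to 21.0, overlaps that of each 5, 1.62 to 11.7. These are intervals of raw counts in libraries of unlike depth, and their overlap is not a test of a difference. *Ahrr* (chromosome 13, 74211118 to 74292331), the repressor of AHR, had 1 and 2 counts in WT against 0 and 1, all under the floor of 3 counts, which is 0.173 to 0.281 CPM. Neither gene passed the filter, and the intervals cover counting error only.

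Levels of different genes were compared as RPKM, CPM divided by exon length in kilobases. *Il6st* was the highest, at a mean of 104 RPKM over the 4 libraries, followed by *Stat3* at 79.3, and their ranges over the libraries overlapped (75.0 to 120 and 72.7 to 88.6). *Il6ra* at 23.0 and *Maf* at 5.98 came next, each without overlap with its neighbours. The exon length used for *Maf*, 8241 bases in GENCODE vM1, exceeds its RefSeq span printed above, so its RPKM depends on the annotation. *Rora* at 2.20 and *Ahr* at 1.17 overlapped each other, because WT replicate 1 held *Ahr* at 2.02, above the lowest level of *Rora* (1.87). *Il23r* was at 0.228 and *Ahrr* at 0.0092. The 2 regulators that were lower had levels well under those of *Il6st* and *Stat3*.

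Macrophages also express *Maf*, so the macrophage markers are set beside *Maf* library by library. *Csf1r*, the macrophage growth factor receptor, was at 124 and 1.97 CPM in the WT replicates and at 4.96 and 371 CPM in TfR1-deficient replicates 1 and 2. *Maf* was highest in WT replicate 2, where macrophage markers were low, and lowest in TfR1-deficient replicate 1, where they were low as well. Between the libraries with low marker levels, TfR1-deficient replicate 1 against WT replicate 2, the log2 ratio was -1.26 for *Maf* and -1.29 for *Ahr*, without a test. Without TfR1-deficient replicate 2 the log2 fold change of *Maf* was -1.20, and without WT replicate 1 it was -1.02. The part of macrophages in the *Maf* values was not tested.

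**Figure D3:**
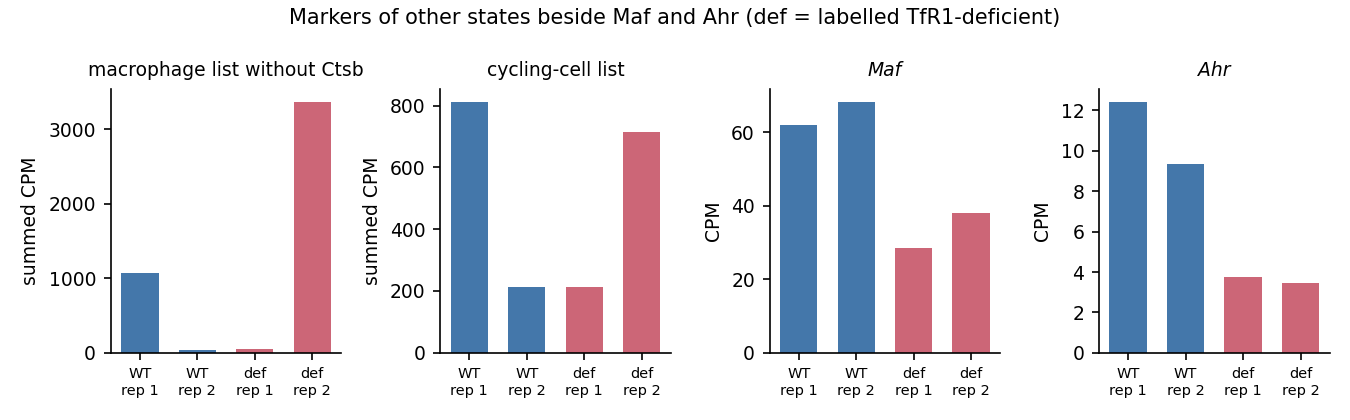
Summed CPM of 19 macrophage markers (without *Ctsb*) and of 10 cycling-cell markers, and CPM of *Maf* and *Ahr* (y axes, linear, from 0), in each of the 4 libraries (x axis; bars, 1 library each). Both marker lists are high in WT replicate 1 and TfR1-deficient replicate 2, whereas *Maf* and *Ahr* are higher in the 2 WT libraries.

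Around these members, 72 genes in 5 lists were followed, of which 56 were tested. At the unadjusted threshold 11 of the 56 were lower where TfR1 deficiency was labelled and 0 higher. Over all 12536 tested genes 2.48% were lower and 1.6% higher, the shares against which the count of each list below is to be read. After adjustment edgeR called 0 of the 56, each of the 11 having an adjusted p = 0.911. DESeq2 put 12 lower unadjusted, and its adjusted p passed for *Ctla4*, *Il10* and *Ccr6*. Over all 12536 genes DESeq2 put 307 lower and 206 higher unadjusted, and 37 lower and 7 higher adjusted. Leaving out any 1 library, *Gpr15*, *Il12rb1*, *Il10*, *Ccr6* and *Ctla4* stayed past the unadjusted threshold, whereas *Mafk*, *Tyk2*, *Il10ra*, *Nrp1* and *Irf4* each missed it in at least 1 such fit.

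In the list of ROR family and clock genes 6 of 8 were tested, with 0 higher and a median log2 fold change of 0.051.

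Of the AHR pathway, 8 of 13 genes were tested and 1 was lower. It was *Gpr15*, a homing receptor for the large intestine that is known as a target of AHR, at 11.0 and 15.8 CPM in WT against 4.73 and 4.38 CPM, a log2 fold change of -1.55 (standard error 0.33). *Arnt*, the DNA-binding partner of AHR, was at 87.3 and 87.8 CPM against 81.2 and 68.0 CPM and did not pass (-0.23, standard error 0.15). *Cyp1a2*, *Cyp1b1* and *Il22* had no counts. The list's median was -0.068.

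Among the 6 other Maf proteins, 4 were tested and 1 was lower. *Mafk*, a small Maf protein without an activation domain, was at 51.2 and 54.6 CPM in WT against 34.3 and 33.4 CPM (log2 fold change -0.64, standard error 0.15). Omitting WT replicate 2 gave an unadjusted p = 0.054, and omitting TfR1-deficient replicate 1 gave 0.056, in edgeR's quasi-likelihood test. *Mafa* and *Nrl* had no counts. The list's median was 0.029.

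Of the IL-6, IL-23 and STAT3 signalling list, 20 of 25 genes were tested, 3 were lower and 0 higher, with a median log2 fold change of -0.10. *Il12rb1* encodes the chain that pairs with IL-23R and also serves IL-12. WT held 45.3 and 32.5 CPM and the libraries labelled TfR1-deficient 20.1 and 17.4 CPM, a log2 fold change of -1.05 (standard error 0.24). *Tyk2*, the kinase bound to that chain, was at 206 and 165 CPM in WT against 131 and 121 CPM (-0.56, standard error 0.17). *Il10ra*, a chain of the IL-10 receptor, was at 69.2 and 51.7 CPM against 39.2 and 39.9 CPM (-0.61, standard error 0.19). *Tyk2* and *Il10ra* missed the unadjusted threshold without WT replicate 1 (-0.37 and -0.37) and without either library labelled TfR1-deficient. *Jak2*, the kinase that works beside TYK2 at the IL-23 receptor, overlapped between the genotypes at 44.7 and 54.2 against 64.5 and 52.4 CPM, and *Socs3*, the STAT3-induced inhibitor of gp130, at 89.7 and 67.7 against 61.8 and 69.4 CPM. *Arnt*, *Jak2* and *Socs3* were named after their values were seen.

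The list named for type 17 and c-Maf-dependent Treg genes held the most differences. Of its 18 tested genes 5 were lower and 0 higher, with a median log2 fold change of -0.62. It also holds genes not particular to that program, *Ctla4*, *Irf4* and *Nrp1* among them, so its count does not describe that program alone. *Il10*, the suppressive cytokine whose production needs c-Maf, was at 12.0 and 5.53 CPM in WT against 1.21 and 1.17 CPM (-2.88, standard error 0.52). *Ccr6*, a chemokine receptor of type 17 T cells, was at 46.1 and 47.0 CPM against 24.1 and 23.9 CPM (-0.95, standard error 0.17). *Irf4*, a factor of effector Treg cells, was at 61.4 and 29.9 CPM against 21.3 and 25.2 CPM (-0.98, standard error 0.37), and *Ctla4*, an inhibitory receptor, at 407 and 427 CPM against 241 and 235 CPM (-0.81, standard error 0.13). *Nrp1*, better known as a marker of thymus-derived Treg cells than of the type 17 program, was lower as well, at 308 and 370 CPM against 237 and 181 CPM (-0.70, standard error 0.20). *Nrp1* missed the unadjusted threshold without WT replicate 2 or TfR1-deficient replicate 2, and *Irf4* when either replicate 1 was left out (-0.35 without that of WT). *Il17a* and *Il17f*, the cytokines of type 17 helper T cells, had at most 0.375 CPM in any library. *Il10*, *Ctla4* and *Icos* in this list were singled out by the study in these libraries and are not independent evidence of its direction.

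**Figure D4:**
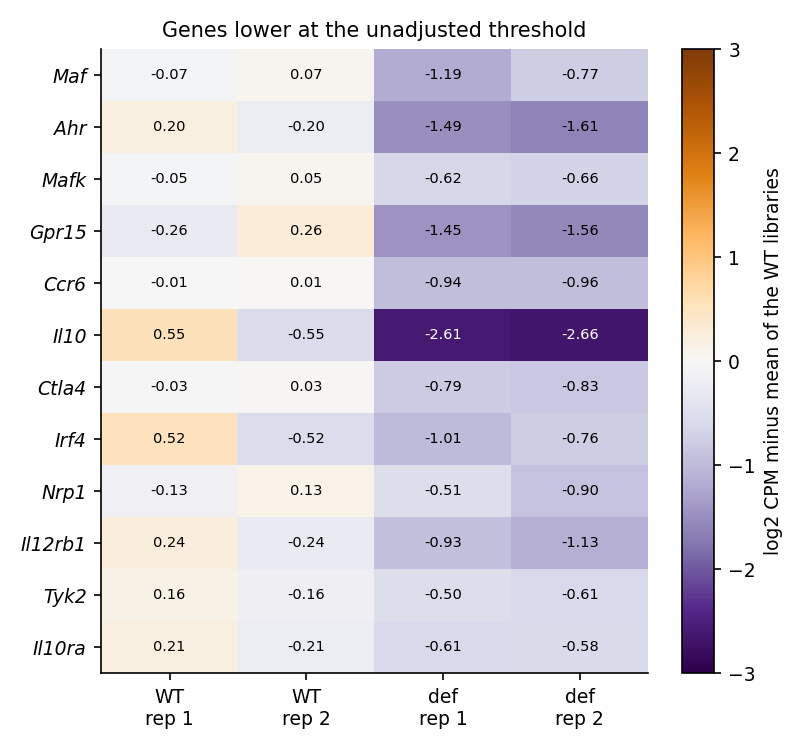
Log2 CPM minus the mean of the WT libraries (colour and printed numbers) for *Maf*, *Ahr* and 10 list genes past the unadjusted threshold (rows) in the 4 libraries (columns). The values of both libraries labelled TfR1-deficient are negative in every row, from -0.50 to -2.66, as the choice of genes requires, and the WT libraries differ most in *Il10* and *Irf4*.

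Genes with the profile nearest to *Maf*, *Ahr* and *Rora* were sought among 8454 tested genes with a mean log2 CPM of at least 3, by the Euclidean distance of log2 CPM, centred on each gene's mean, over the 4 libraries. Nearest to *Maf* were *Cxcr5*, the chemokine receptor of follicular T cells (distance 0.19), *Dnajc16* (0.23) and *D18Ertd653e* (0.24). *Cxcr5* was at 55.7 and 58.1 CPM in WT against 24.9 and 29.0 CPM. Nearest to *Ahr* were *Rnf43* (0.26), *Fgl2*, a secreted suppressive mediator (0.31), and *Ptpn5* (0.34). Both *Ahr* and *Fgl2* were singled out by the study in these same libraries, so their match is not an independent observation. Nearest to *Rora*, at distances of 0.018 to 0.038, were *2610015P09Rik*, the splicing factor *Srsf3* and *Itgb1*, which encodes integrin β1. With 4 libraries such distances describe these samples only.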

How the data were processed

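The authors made low-input RNA-seq libraries (NEBNext) from sorted Treg cells. They deposited raw read counts for each Ensembl gene, 1 column per library. The paper's methods name STAR and mm9, whereas the submitters' processing notes list mm10, Trim Galore 0.6.7, STAR 2.7.9a and featureCounts. Of the identifiers, 14930 of 47729 are not in GENCODE vM1, the annotation of mm9 at hand. The strand setting and annotation release are not given in the sources used here. Printed coordinates are those of RefSeq on GRCm38.p6 (mm10), matched by symbol. Symbols and exon lengths (union of exons) come from GENCODE vM1, and rows without a symbol held 0.907% of the counts.

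After filterByExpr 12536 genes remained, and TMM-scaled counts were fitted with edgeR 4.0.16 in R 4.3.3 (quasi-likelihood test, genotype only, Benjamini-Hochberg adjustment). Standard errors were taken from the log2 fold change and the F statistic, and 95% intervals from the t distribution of the fit. Log2 CPM uses a prior count of 2. DESeq2 1.42.0, other scalings and filters, a replicate block and the omission of each library were alternatives. A crossed pairing of the replicate numbers, WT replicate 1 with TfR1-deficient replicate 2, was added once the data had been seen. The fits were tested on 1 set of simulated data, in which called genes had the right sign, but the share of false calls among the adjusted ones exceeded the threshold of 0.05 in edgeR and, more so, in DESeq2. The p-values rest on the spread between 2 libraries per genotype, called biological replicates by the study. The fits also moderate the spread of each gene with that of all genes. An exact permutation test of 2 against 2 cannot go below 0.333. Members, gene lists and tests were chosen with earlier results of these data known. Named genes were the members, the list genes past the unadjusted threshold except where not reported here, 3 nearest profiles each for *Maf*, *Ahr* and *Rora*, *Tfrc*, *Foxp3*, *Csf1r* and *Mki67*. Other genes named are said to be chosen after their values were seen, or had no or few counts. Of 7 erythroid markers, 5 were matched by symbol. Replicates differed by more than counting noise (chi-square per degree of freedom 31.1 in WT and 51 in TfR1-deficient). Results for some list genes are not reported here.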

Additional observations from a re-analysis of the deposited data

How the results depend on the processing

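The count of 2 lower and 0 higher members at the unadjusted p-value was the same in each setting, those without 1 library included. A fit without 1 library leaves 1 genotype with a lone library, which is assumed to vary like the other group. After adjustment, *Maf* and *Ahr* were both called, making 2 lower members, with at least 1 count in any library as the filter (adjusted p = 0.0030 and 0.045) and with a crossed pairing, and by no other setting. Over all genes, the adjusted calls were 37 lower and 7 higher in DESeq2 and 95 and 167 with that filter, where the main setting gave 0 (311 lower and 200 higher unadjusted). The same filter gave 650 higher unadjusted genes and 1 higher list gene. Leaving out 1 library gave 131 (without WT replicate 1) to 382 lower and 169 to 353 (without TfR1-deficient replicate 1) higher genes unadjusted, 0 to 1 higher list genes, and a member median of -0.37 to -0.19. *Stat3* changed sign without TfR1-deficient replicate 1 (range -0.069 to 0.18 over the omissions) and *Il6st* without TfR1-deficient replicate 2 (range -0.55 to 0.012). The cause was not tested. The depth limits *Il23r* and *Ahrr*.

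Same-numbered libraries deviated from their group means in opposite directions (correlation across genes -0.61). With 2 libraries per genotype this value cannot decide whether the replicate numbers pair the libraries. The replicate block gave 141 lower and 70 higher genes at the unadjusted p-value, of which 134 and 61 were shared with the fit without it, and 2 lower members. A crossed pairing, added once the data had been seen, gave 519 lower and 596 higher genes unadjusted, 210 and 150 adjusted, 1 higher list gene and 2 lower members adjusted.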
